A study of Mus musculus with 2 samples.

Results

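Mir148a, Mir148b and Mir152 are the 3 mouse microRNA (miRNA) genes of the miR-148 and miR-152 family, chosen by their gene names among the 2202 miRNA gene IDs of the deposited tables. All 3 were found by matching IDs to the GENCODE M21 annotation. MicroRNA sequencing, which reads RNA inserts under 30 nt, was done on total RNA from whole heart tissue of female B6CASTF1/J mice at 10 days of age. This strain is a hybrid that carries 1 genome of C57BL/6J and 1 of CAST/EiJ. The labels name 1 group of 2 hearts, biological replicates 1 and 2, with 1 library each. They name no treatment and no second condition. The hearts have separate biosamples, and no litter or day is named, so the differences below are between 2 libraries and have no group contrast behind them. In whole tissue, fewer cells of a type and less RNA per cell cannot be told apart.

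A miRNA is cut from a hairpin precursor, and 1 arm of the hairpin, about the length of the sequences shown here, guides a silencing complex to messenger RNAs that pair with its seed, bases 2 to 8. The miR-148 and miR-152 family is known for targeting Dnmt1, the maintenance DNA methyltransferase. Members with the same seed are expected to overlap in targets, so how the family's counts divide over its genes is described here. The counts hold both arms of each hairpin, so they do not measure the pool of that seed itself.

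The mature 3p forms, from the 3' arm of each hairpin, are shown first because their shared seed defines the family and their other bases tell the genes apart. Sequences are from RefSeq (GRCm38.p6) and run 5′ to 3′, and the capitals mark the seed.
miR-148a-3p: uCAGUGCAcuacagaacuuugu
miR-148b-3p: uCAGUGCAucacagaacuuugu
miR-152-3p: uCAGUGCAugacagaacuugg

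The seed CAGUGCA stood at bases 2 to 8 of 3 of 1679 mature mouse miRNAs in that table (0.179%), and these were the 3 forms shown. The letters occurred anywhere in 17 of them (1.01%). Counted from 1 at the 5′ end, with miR-148a-3p as the reference, miR-148b-3p carried C9U and U10C, so 20 of 22 bases were the same. miR-152-3p carried C9U, U10G and U20G against miR-148a-3p, with 18 of 21 compared bases the same. With miR-148b-3p as the reference it carried C10G and U20G, with 19 of 21 the same. The first difference therefore lay at base 9, directly behind the seed, for the pairs with miR-148a-3p. Between miR-148b-3p and miR-152-3p it lay at base 10. The longest run shared by 2 of the 3p forms was 12 nt, between miR-148a-3p and miR-148b-3p, and it was 9 nt for each of the other two pairs.

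The other arm of the hairpin, 5p, gave the second set of sequences, shown because the counts are per gene and hold reads of both arms together.
miR-148a-5p: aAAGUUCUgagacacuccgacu
miR-148b-5p: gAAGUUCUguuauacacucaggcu
miR-152-5p: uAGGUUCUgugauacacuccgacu

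The 5p forms of Mir148a and Mir148b had the seed AAGUUCU, and that of Mir152 had AGGUUCU. On this arm the 3 genes thus did not form 1 seed group. The deposited tables do not separate the arms, so the share of each count that carries the 3p seed was not measured.

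The hairpins are shown because the reads were counted over their whole length, with the mature 3p form in capitals.
Mir148a: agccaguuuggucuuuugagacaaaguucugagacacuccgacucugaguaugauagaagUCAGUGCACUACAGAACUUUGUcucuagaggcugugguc
Mir148b: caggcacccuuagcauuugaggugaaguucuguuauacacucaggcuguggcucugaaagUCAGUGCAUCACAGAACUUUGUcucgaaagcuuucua
Mir152: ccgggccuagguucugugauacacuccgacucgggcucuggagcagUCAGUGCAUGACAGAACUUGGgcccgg

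The hairpins of Mir148a (99 nt) and Mir148b (97 nt) had 45.5% and 45.4% G or C. That of Mir152 was shorter (73 nt) and richer in G or C (61.6%). The minimum free energy of folding computed with RNAfold was -41.0 kcal/mol for Mir148a, -30.9 for Mir148b and -43.5 for Mir152. Mir148b was thus predicted to fold least firmly of the 3. The longest run that a member hairpin shared with any other of the 2202 miRNA genes was 15 nt, between Mir148a and Mir148b. For Mir152 it was 12 nt, with Mir148a. The full mature 3p sequence of each member occurred in the transcripts of its own gene alone among 141767 annotated transcripts. Reads placed at more than 1 position, which the tables leave out of the gene counts, were 38.9% of all reads in replicate 1 and 38.0% in replicate 2. A search of the genome itself was not made here.

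The genes lie on 3 chromosomes (mm10). Mir148a (ENSMUSG00000065505.1) is at chr6:51269812-51269910 on the minus strand and overlaps no other annotated gene. Its nearest neighbours were the pseudogene Gm44402, 302307 bases away, and the long noncoding RNA gene Gm32479, 13622 bases away. Mir148b (ENSMUSG00000065560.1) is at chr15:103285125-103285221 on the plus strand, in intron 1 of all 4 annotated transcripts of Copz1, 12411 bases from the start of that gene. Mir152 (ENSMUSG00000065515.1) is at chr11:96850393-96850465 on the plus strand, in intron 1 of Copz2, 523 bases from the gene's start. It was intronic in all 3 of the 5 Copz2 transcripts that span it. Copz1 and Copz2 are paralogs that encode the zeta subunit of the coatomer, the coat of vesicles that travel from the Golgi to the endoplasmic reticulum. Both hosts are transcribed in the direction of their miRNA.

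The neighbourhoods of the 2 intronic genes were alike in another way. The nearest gene at lower coordinates was Nfe2 for Mir148b (26722 bases away) and its relative Nfe2l1 for Mir152 (20425 bases away), both on the opposite strand. These positions are a description.

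Replicate 1 had 4260561 reads on named miRNA genes and replicate 2 had 4583025, of 10782737 and 10201509 reads in all. Of the 2202 genes, 346 were detected, that is, had 10 or more counts in both libraries. The heart label was checked against a short list of marker miRNAs. All 3 heart muscle genes on it (Mir208a, Mir208b, Mir499) were detected, with a summed level of 9644 and 6536 CPM in replicates 1 and 2. CPM are read counts scaled to 1 common library total. The 2 genes listed as skeletal muscle, Mir206 and Mir133b, summed to 21.6 and 19.4 CPM. Whether each listed gene is particular to its muscle type was not tested. Some miRNA genes also linked to heart muscle were not on the list and had low counts. Mir133a-2 had 6 and 4 counts in replicates 1 and 2, and Mir133a-1 had 33 and 12. Mir1a-2 had 185 and 245, and Mir1a-1 had 11 and 12. Reads placed at more than 1 position are left out of these counts. Whether this lowered them, or the skeletal muscle sum, was not tested. The check therefore rests on the listed genes alone.

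All 3 members were detected, and Mir152 had the highest mean level. Mir152 had 2214 counts in replicate 1 and 2493 in replicate 2. As CPM of the reads on named genes, that was 519.6 (exact 95% Clopper-Pearson interval 498 to 542) and 544 (523 to 566). The mean was 532 ± 17.2 CPM (SD, n = 2), so the hearts were close to each other for this gene.

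Mir148a had 1419 counts in replicate 1 and 2394 in replicate 2. These were 333 CPM (316 to 351) and 522 CPM (502 to 544), with a mean of 428 ± 134 CPM (SD, n = 2). Replicate 2 was the higher heart, and its level reached the range of Mir152.

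Mir148b, the gene hosted by Copz1, had 395 counts in replicate 1 and 937 in replicate 2. These were 92.7 CPM (83.8 to 102) and 204 CPM (192 to 218), with a mean of 149 ± 79.0 CPM (SD, n = 2). It was the lowest of the 3 in both hearts, and its higher heart stayed below the lower heart of Mir148a.

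The SD was 3.23% of the mean for Mir152, 31.3% for Mir148a and 53.2% for Mir148b. A count of 0 would have allowed up to 0.704 CPM in replicate 1 and 0.655 CPM in replicate 2, so all levels lay far above the counting floor. Intervals and floors cover counting error alone, since no molecular identifiers are described.

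**Figure D1:**
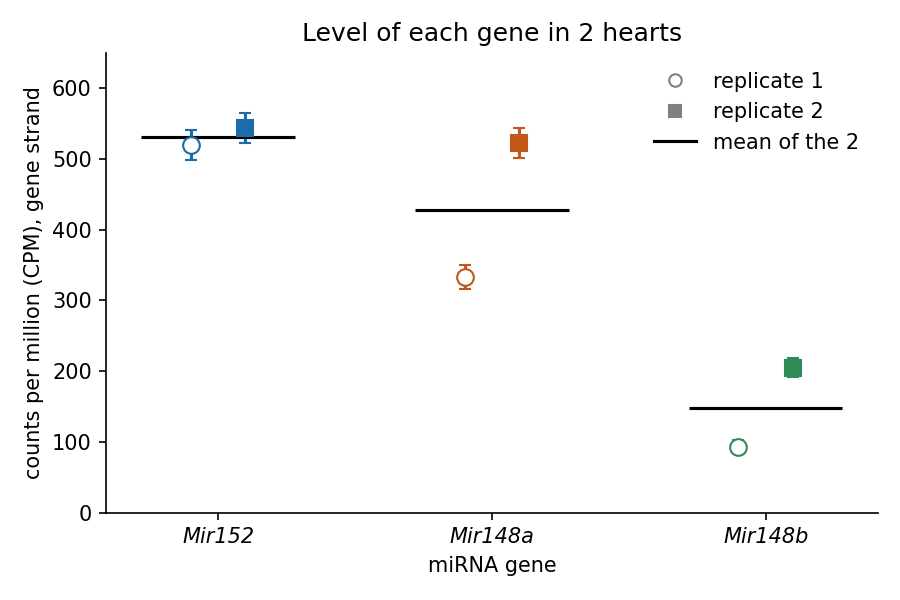
Level of each gene in CPM (vertical axis, from 0) in replicate 1 (open circles) and replicate 2 (filled squares), with exact 95% counting intervals as bars and the mean of both as a black line. Mir152 sits at 519.6 and 544 CPM, Mir148a spreads from 333 to 522 and Mir148b from 92.7 to 204.

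Among all 2202 genes ordered by mean CPM, Mir152 ranked 91, Mir148a 103 and Mir148b 149. The median of the 346 detected genes was 85.1 CPM, and the 3 members stood above it. Within replicate 1 the ranks were 95, 113 and 171, and within replicate 2 they were 92, 94 and 133. The genes directly above and below Mir152 were Mir487b (571 ± 132 CPM) and Mir431 (530.5 ± 125 CPM), and neither differed from Mir152 by more than its own SD. Mir148a stood between Mir301 (449 ± 552 CPM) and Mir200c (420 ± 212 CPM), and Mir148b between Mir142 (154 ± 19.6 CPM) and Mir500 (138 ± 18.8 CPM). These neighbours, too, lay within 1 SD of the member. The ranks are therefore not exact positions.

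**Figure D2:**
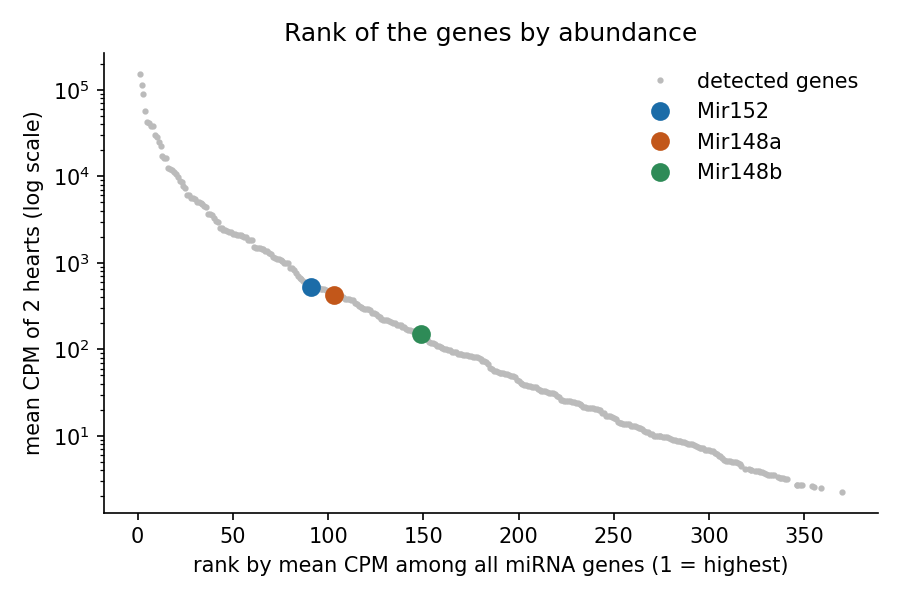
Mean CPM of both hearts (vertical axis, log scale) against the rank among all miRNA genes (horizontal axis), with detected genes in grey and the 3 members in colour. Mir152 (rank 91) and Mir148a (rank 103) lie close together, and Mir148b (rank 149) lies lower on the curve.

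The likeness of levels was measured as the Euclidean distance in log2(CPM + 1) over the 2 libraries, among 263 other genes whose counts summed to at least 100. Nearest to Mir152 were Mir434 (distance 0.081), Mir210 (0.20) and Mir490 (0.21). Mir434 had 532 and 517 CPM. Nearest to Mir148a were Mir296 (0.20), Mir25 (0.34) and Mir339 (0.37). Mir296 had 289 and 530.0 CPM, so it too was higher in replicate 2. Nearest to Mir148b were Snord43, a gene the annotation lists among its miRNAs (0.21), Mir381 (0.49) and Mir122 (0.60). Snord43 had 99.3 and 233 CPM. A distance over 2 values describes the closeness of levels and no more.

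Together the 3 genes held 4028 counts in replicate 1 and 5824 in replicate 2. Their share of the counts on named genes was 0.0945% (0.0916 to 0.0975) and 0.127% (0.124 to 0.130, both exact 95% intervals), with a mean of 0.111% ± 0.0230 (SD, n = 2). Within this pool Mir152 gave 55.0% of the counts in replicate 1 (53.4 to 56.5) and 42.8% in replicate 2 (41.5 to 44.1). Mir148a gave 35.2% (33.8 to 36.7) and 41.1% (39.8 to 42.4), and Mir148b gave 9.81% (8.90 to 10.8) and 16.1% (15.2 to 17.1). Mir152 was thus the leading gene by a clear margin in replicate 1, while in replicate 2 Mir152 and Mir148a gave nearly equal parts.

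The ratio of 2 genes within a library needs no scaling between libraries. It compares counts, and how evenly different sequences enter a library was not measured. Mir152 exceeded Mir148a 1.56-fold in replicate 1, a log2 ratio of 0.64 with an exact 95% interval from 0.54 to 0.74. In replicate 2 the ratio was 1.04-fold (0.06, -0.02 to 0.14), and the interval held equal counts. Mir152 exceeded Mir148b 5.61-fold in replicate 1 (log2 2.49, 2.33 to 2.64) and 2.66-fold in replicate 2 (1.41, 1.30 to 1.52). Mir148a exceeded Mir148b 3.59-fold (1.84, 1.68 to 2.01) and 2.55-fold (1.35, 1.24 to 1.46). Mir148b was therefore the lowest in each library beyond counting error.

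Per 100 nt of annotated gene length, the levels were 729 ± 23.6 CPM for Mir152, 432 ± 135 for Mir148a and 153 ± 81.5 for Mir148b (SD, n = 2). On that scale Mir152 had 712 and 745 CPM per 100 nt and Mir148a had 336 and 528. These ranges did not overlap as they did in CPM. Inserts were under 30 nt, so counts need not scale with hairpin length, and the wider gap comes from the division alone. The ratio of Mir152 over Mir148a became 2.12-fold in replicate 1 and 1.41-fold in replicate 2, because the Mir152 hairpin is the shortest. The order of the means was the same on both scales.

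All 3 ratios moved between the hearts. The log2 ratio of Mir152 over Mir148b fell by 1.07 from replicate 1 to replicate 2, a 2.11-fold change (2-sided Fisher's exact test, adjusted over the 3 pairs compared, p = 6.26e-30). The log2 ratio of Mir152 over Mir148a fell by 0.58 (p = 1.06e-19, the same exact test), and that of Mir148a over Mir148b fell by 0.49 (p = 5.73e-07, the same exact test). These p-values compare the reads of 2 libraries and do not measure the spread between animals.

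**Figure D3:**
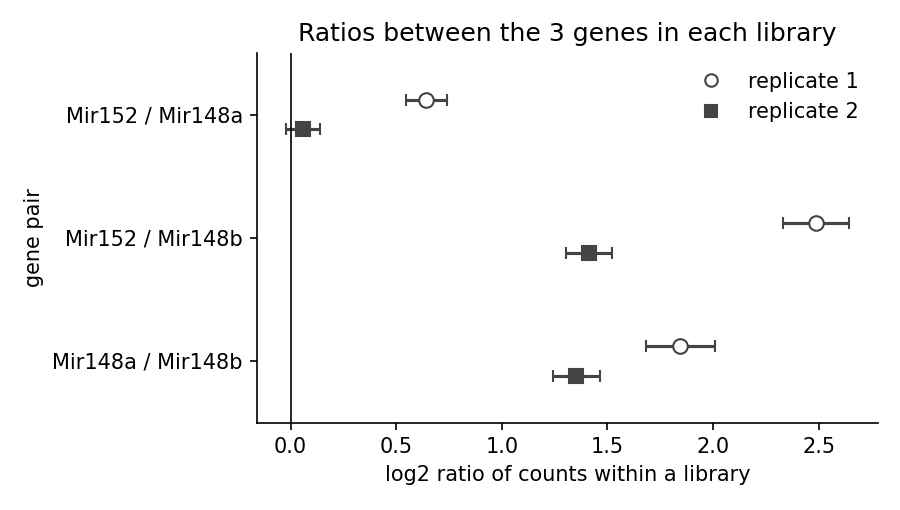
Log2 ratio of counts (horizontal axis) for the 3 gene pairs within replicate 1 (open circles) and replicate 2 (filled squares), with exact 95% intervals as bars and a line at equal counts. Each pair has its lower ratio in replicate 2, and only Mir152 over Mir148a in replicate 2 has an interval (-0.02 to 0.14) that holds 0.

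Between the libraries, scaled with trimmed mean of M values (TMM) factors, all 3 genes were higher in replicate 2. An exact binomial test per gene, with Benjamini-Hochberg adjustment over the 375 genes whose counts summed to at least 20, called 3 of 3 members. Over all genes tested it called 55.2% in either direction, 26.1% as higher in replicate 2 and 29.1% as lower, so being called is common here. That share includes genes with summed counts as low as 20, whereas the members had 1332 to 4707. This test calls smaller differences at higher counts, and the share among genes of like counts was not computed. Mir148b had the largest ratio of the members, 2.31-fold (log2 1.21, exact 95% interval 1.04 to 1.38, adjusted p = 2.48e-47). Mir148a was 1.64-fold higher (log2 0.72, 0.62 to 0.81, exact test, adjusted p = 2.62e-50). Mir152 was 1.10-fold higher (log2 0.13, 0.05 to 0.22, exact test, adjusted p = 0.00378).

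The call for Mir152 rested on the scaling. Scaled by total counts, its log2 ratio was 0.066 and its adjusted p 0.182 (exact binomial test), and over all alternatives the adjusted p ran from 0.000132 to 0.182. Genes called and also 2-fold or more higher in replicate 2 were 18 of 375 (4.8%), and Mir148b was the member among them. The median log2 ratio of the 3 members was 0.72, against -0.015 for all 375 genes tested. Of these genes, 18 had a higher ratio than Mir148b, 43 a higher ratio than Mir148a and 142 a higher ratio than Mir152.

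**Figure D4:**
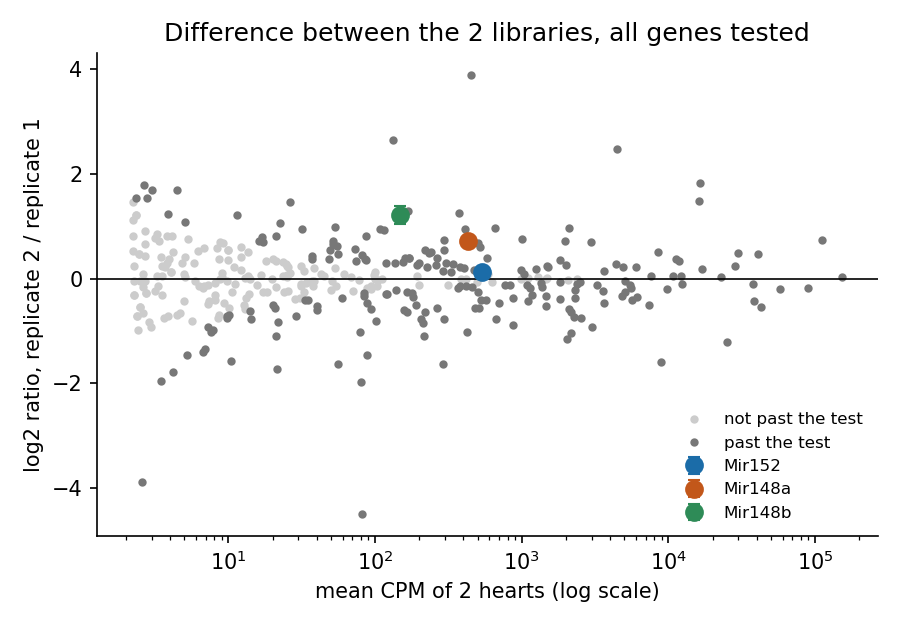
Log2 ratio of replicate 2 over replicate 1 (vertical axis) against mean CPM (horizontal axis, log scale) for the 375 genes tested, dark grey where past the exact binomial test and light grey otherwise. The members, with exact 95% intervals as bars, lie above 0 at 1.21 (Mir148b), 0.72 (Mir148a) and 0.13 (Mir152), among many other genes past the test.

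Markers of other cell types and tissues also differed between these libraries. In the same exact test, all 3 erythroid genes were higher in replicate 2 (summed level 549.7 and 1048 CPM). So were the liver gene Mir122 (76.3 and 141 CPM) and Mir126a, the only endothelial gene listed (86321 and 137860 CPM). Mir221 and Mir222, also linked to endothelium but not listed, were lower in replicate 2 (1147.5 and 589 CPM, 130 and 45.2 CPM). All 3 listed heart muscle genes and 1 of 2 smooth muscle genes (summed level 53735 and 35952 CPM) were lower in replicate 2. Of 5 white blood cell genes, 2 were higher (3607 and 3720 CPM). Of 7 epithelial and pancreatic genes, 6 were tested, 4 were lower and 1 was higher (785 and 436 CPM). Neither of the 2 genes listed as skeletal muscle was called, and no marker was at 0 in both libraries. Their part in the higher counts of Mir148a and Mir148b was not tested.

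The miR-130 and miR-301 family has an offset seed, and its mature 3p forms are shown to let the shared letters be seen. The capitals again mark bases 2 to 8.
miR-130a-3p: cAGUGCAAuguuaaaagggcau
miR-130b-3p: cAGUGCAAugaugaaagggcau
miR-301a-3p: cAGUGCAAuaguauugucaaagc

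Bases 3 to 8 of the miR-148 and miR-152 forms, AGUGCA, are bases 2 to 7 of these. That placement was found in 7 of 1679 mature miRNAs (0.417%). Apart from Mir130a, Mir130b and Mir301, their genes Mir6341, Mir721, Mir6389 and Mir130c had 0 counts in both hearts. The sequences used held no miR-301b-3p, so Mir301b is counted below by its family name and its seed was not checked. The 4 genes Mir130a, Mir130b, Mir301 and Mir301b together held 0.632% (0.625 to 0.640) of the counts of replicate 1. In replicate 2 they held 0.631% (0.624 to 0.638), so the exact-seed family had fewer counts in both hearts.

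The pool of the miR-130 and miR-301 family was led by 1 gene. Mir130a gave 92.6% (92.2 to 92.9) of it in replicate 1 and 81.0% (80.6 to 81.5) in replicate 2. Genes of the miR-130 and miR-301 family share runs with other miRNA genes, 17 nt for Mir130a with Mir6389 and 16 nt for Mir130b with Mir6368. Mir301 and Mir301b share 16 nt. Whether reads left out for having more than 1 position lowered these counts, or the 0 counts of Mir6389, was not tested. In the pair Mir101a and Mir101b, which hold a run of 20 nt in common and are less certain for it, Mir101b gave 88.4% (86.7 to 90.0) and 82.7% (79.8 to 85.4). Mir152 gave 55.0% and 42.8% of its own family. In each of these libraries the counts of the miR-148 and miR-152 family were thus spread more evenly than those of the compared families. The families differ in their number of genes, no other family was compared, and this difference was not tested over animals.

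The summed ratios of the families between the libraries had counting intervals that did not overlap. The sum of the miR-148 and miR-152 family was higher in replicate 2 by a log2 ratio of 0.49 under TMM scaling (exact 95% interval 0.43 to 0.55). Under the same TMM scaling the ratio was 0.064 (0.040 to 0.088) for the miR-130 and miR-301 family, whose share of the total counts was instead slightly lower in replicate 2 (6324 and 6312 CPM), and -0.99 (-1.12 to -0.86) for Mir101a and Mir101b. Within the miR-130 and miR-301 family, Mir301 went from 252 to 3846 counts while Mir130a went from 24941 to 23444. Mir148a, Mir148b and Mir152 had ratios of 1 sign under TMM scaling, DESeq2 size factors and total counts. By total counts, however, Mir152 was not called (log2 0.066, adjusted p = 0.182, exact binomial test). Mir101a and Mir101b also had 1 sign under TMM scaling, at log2 -0.41 and -1.09.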

How the data were processed

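The authors deposited raw read counts per miRNA gene, 1 table per library, made on mm10 with GENCODE M21 per the file headers. Neither the aligner nor the counting program is given in the sources used here. The tables have no header line, and their count columns were read from the values as without strand, gene strand and opposite strand. The column read as the gene strand was used. Category rows (unmapped, multimapping, outside features) were left out of library sizes: named genes held 39.5% and 44.9% of all reads. IDs were matched to GENCODE M21 (2202 of 2202). Both libraries formed 1 group, so no test between conditions was made.

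Computed from the counts were CPM, shares, ratios with exact 95% Clopper-Pearson intervals, Fisher's exact tests, and an exact 2-sided binomial test per gene given TMM sizes (edgeR 4.0.16, R 4.3.3, prior count 0.5, threshold 0.05). The binomial test was tested on simulated data that held counting noise alone, so that check does not cover variation between animals or libraries. Alternatives included DESeq2 1.42.0 size factors. Sequence work used RefSeq sequences and RNAfold 2.7.2, and statistics used scipy 1.17.1. Named genes were the members, their neighbours in rank, the 3 nearest in level, the offset-seed and Mir101 genes and cell type markers. The members and lists were chosen with earlier results of these data known.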

Additional observations from a re-analysis of the deposited data

Results flagged for a closer look

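Reads placed at more than 1 position lie outside the gene counts and numbered 4193785 in replicate 1 and 3872896 in replicate 2. How many of them came from Mir148a, Mir148b or Mir152 was not analysed here. On the strand opposite to the gene, Mir152 had 1 read in replicate 2, and Mir148a and Mir148b had 0 in both libraries. All were within the limit of 3 counts set by a count of 0.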

How the results depend on the processing

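Of 50 values under alternatives that keep both hearts, 40 held their call, moved by less than 1 SD or, for the number of members called, stayed within 1.5 times. A further 9 moved by 1 SD or more and 1 lost its call. Some of the 40 could hardly change, since a prior count of 2 leaves the p-values as they are. Without strand, the counts of the members differed by at most 1 read. The 1 SD rule was also wide for Mir148b, which without strand was at 214 CPM against 149, within its SD of 79.0. By total counts, 2 of the 3 members were called. Over all reads the levels were 225 CPM for Mir152, 183 for Mir148a and 64.2 for Mir148b, and the family share was 0.0472%, since that denominator is larger. Without strand, Mir152 was at 757 CPM, Mir148a at 613 and the share at 0.159%, since fewer reads are then assigned to genes. Mir152 was at 627 CPM without the most abundant gene. Per nt of gene length, which counts of short inserts need not follow, the mean log2 ratio of Mir152 over Mir148a was 0.79. By total counts, the log2 ratio of Mir152 between the libraries was 0.066 (adjusted p = 0.182, exact binomial test), and the cause was not tested. Leaving out a replicate leaves the other heart's value: 519.6 to 544 CPM for Mir152, 333 to 522 for Mir148a, 92.7 to 204 for Mir148b, 0.0945% to 0.127% for the share, and log2 ratios of 0.06 to 0.64 (Mir152 over Mir148a), 1.41 to 2.49 (Mir152 over Mir148b) and 1.35 to 1.84 (Mir148a over Mir148b). No paired analysis was possible because the hearts form a single group. Depth limits genes near 0.704 CPM, below all 3 members.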
